A study of Mus musculus with 16 samples.

Results

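The block described here is a set of 56 genes from the distal part of mouse chromosome 3, running in chromosome order from Cnn3 to Wls. The genes were chosen because, as a group, they had higher signals in shSep15 cells than in control cells, so the difference between those cell lines is what selected them and is given below as a description, with no test read from it. Where several probe sets were annotated to a single gene, the one with the highest 16-array mean stood for it, and probe sets annotated to several genes were not used. In this way 54 of the 56 genes were measured, out of 18193 measured genes in all; Alpk1 and Nfkb1 were not analysed here. No filter on low signals was applied to the members, so that weakly detected genes such as Negr1 are counted with the rest.

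The cells were CT26, a murine colon carcinoma line of the BALB/c strain, and 4 lines made from it were compared on Affymetrix Mouse 430 2.0 arrays, with 4 arrays for each line and 16 in all. All lines were stably transfected with the pU6-m3 plasmid, which transcribes a short hairpin RNA from a U6 promoter, and were selected with hygromycin. Control cells carried the empty plasmid, shSep15 cells a hairpin against the 15 kDa selenoprotein (Sep15, gene Selenof), shTR1 cells a hairpin against thioredoxin reductase 1 (TR1, gene Txnrd1), and shTR1/shSep15 cells both hairpins. The arrays of a line came from different mRNA samples, and nothing states that these were separate cultures, so p-values measure the spread between mRNA samples, which may be technical. The methods state that several independent clones and a pair of hairpin oligonucleotides were used in the study, but do not tie them to the arrays, so it is not known here whether the RNA of a line came from 1 clone or from several, and a hairpin and the line that carries it cannot be told apart. The stretches of the transcripts that the hairpins target are given because the Selenof gene itself lies inside the block.

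Sep15 target: acagaagagttccatttaa
TR1 target: atcgctctgacaagcttattag

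Genes that follow each other on a chromosome need not act together, and the block holds enzymes of lipid metabolism, parts of the secretory pathway, RNA-processing factors, kinases and cytoskeletal proteins side by side. Neighbouring genes do share the DNA of their segment and often the chromatin around it. Expression arrays read RNA and not DNA, and in a bulk RNA sample a rise in every cell and a larger rise in a part of the cells cannot be told apart. Sep15 is a protein of the endoplasmic reticulum that binds a glucosyltransferase of the folding quality control, and TR1 is the cytosolic enzyme that reduces thioredoxin.

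The values are log2 signals, on which a difference of 1 is a doubling of the array signal. Selenof had signals of 11.56, 10.78, 11.57 and 11.42 in control cells, 8.02, 8.06, 8.29 and 8.15 in shSep15 cells, 11.57, 11.73, 11.72 and 12.36 in shTR1 cells, and 7.86, 7.34, 7.77 and 7.66 in shTR1/shSep15 cells, so that both lines with the Sep15 hairpin stood apart from both lines without it. Txnrd1 was 10.39, 9.45, 9.9 and 10.1 in control cells and 7.6, 7.18, 7.73 and 7.91 in shTR1/shSep15 cells, but 7.84, 10.57, 7.89 and 9.71 in the arrays labelled shTR1. Replicates 2 and 4 of the latter lie at the level of control arrays and go against their label, so the medians, counts and named genes of the tested shTR1 comparisons are given with and without them, and per-array values let other shTR1 means be read the same way. The mean of 9 measured interferon-induced genes ran from 5.06 to 7.53 in control arrays, was 6.13, 10.19, 9.22 and 9.33 in shSep15 arrays, 5.84, 7.98, 5.62 and 10.3 in the arrays labelled shTR1, and 4.63 to 5.11 in shTR1/shSep15 arrays. As to cell type, probe levels of different genes cannot be ranked, and the 8 colon epithelium markers had means over the 16 arrays from 2.51 for the adhesion gene Cdh1 to 7.45 for the keratin Krt20, with 5.93 for Epcam. The 5 mesenchymal markers ran from 5.77 for Col1a1 to 12.85 for Vim. The 4 measured leukocyte markers ran from 2.76 for Ptprc to 5.54 for Csf1r, and the 3 endothelial markers from 3.21 for Pecam1 to 5.61 for Kdr.

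In shSep15 cells 48 of the 54 members had a higher mean than in control cells and 6 a lower one. Their median difference was 1.28, with quartiles of 0.6 and 1.61 and a range from -0.79 for Manba to 3.31 for Fpgt, whereas the median of all other genes was -0.02. For 33 members the 4 shSep15 arrays all lay above the 4 control arrays, beside 4.81% of all genes. In the limma fit across all probe sets 24 members were called higher at an adjusted p under 0.05, beside 1.86% of all genes, and 0 were called lower, beside 0.863%. Nothing is read from these counts, because this is the contrast the members were chosen on. The plot of differences from control shows every member.

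**Figure D1:**
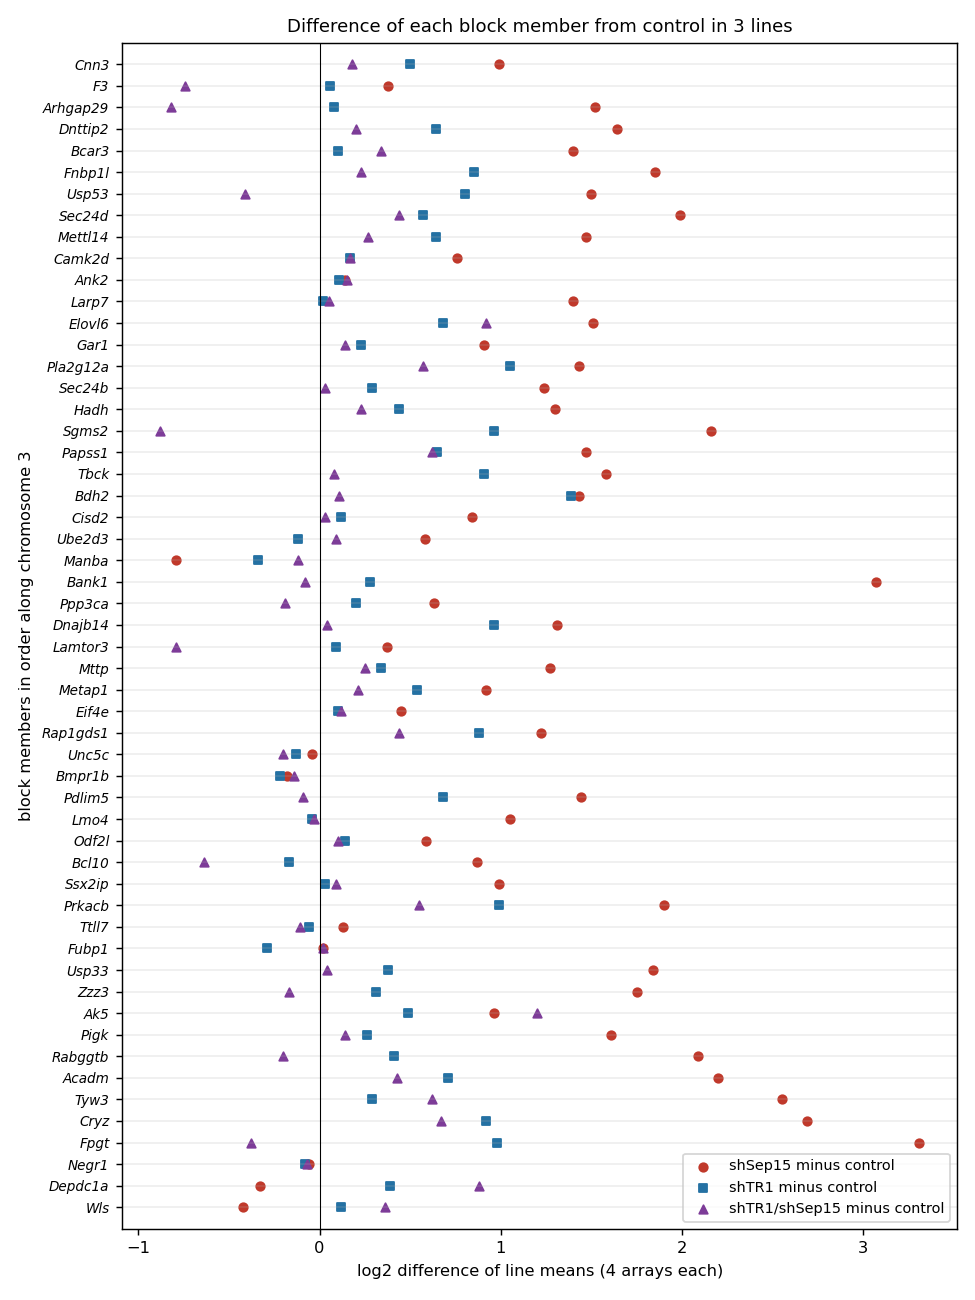
The log2 difference of the line means from control (horizontal axis, 4 arrays for each line) for the 54 measured members in chromosome order (vertical axis), for shSep15 (circles), shTR1 (squares) and shTR1/shSep15 (triangles). The circles lie right of 0 for 48 members, and the triangles lie on both sides of 0, with 36 members right of it.

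The largest difference was that of Fpgt, which makes GDP-fucose from fucose-1-phosphate. Its signals were 6.99, 7.78, 6.06 and 6.07 in control and 10.08, 10.03, 9.92 and 10.1 in shSep15 cells, a 9.92-fold difference of the means, and the shSep15 arrays lay within a narrower range than the control arrays. In the arrays labelled shTR1 it was 6.42, 8.08, 7.71 and 8.6, so that replicates 2 and 4 exceeded every control array, and in shTR1/shSep15 cells it was 6.59, 5.25, 6.95 and 6.6. Bank1, an ankyrin-repeat scaffold protein of B-cell receptor signalling, was close to the lowest signals of the array in control cells, at 2.93, 2.83, 3.33 and 2.94. It was 4.02, 6.54, 6.95 and 6.78 in shSep15 cells, with replicate 1 well under the others. The same gene stayed between 2.7 and 3.32 in the remaining arrays, except for 4.26 in replicate 4 labelled shTR1.

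The genes Tyw3 and Cryz lie head to head and had the next largest differences. Tyw3, an enzyme that builds the modified base wybutosine in a transfer RNA, had 5.44, 4.16, 4.14 and 5.38 in control and 7.14, 7.23, 7.43 and 7.5 in shSep15 cells. Cryz, the quinone reductase zeta-crystallin, had 8.71, 7.93, 8.39 and 8.1 in control and 11.06, 10.95, 10.98 and 10.9 in shSep15 cells. Both were thus higher in every shSep15 array than in every control array, by 5.84-fold and 6.47-fold of the means. Among the arrays labelled shTR1, Tyw3 was 4.46, 6.25, 4.71 and 4.85 and Cryz 8.34, 9.76, 8.61 and 10.1, and replicate 2 was the only array of that label in which both genes lay above the control arrays. In shTR1/shSep15 cells Tyw3 was 5.3, 5.64, 5.44 and 5.22 and Cryz 9.03, 8.49, 9.16 and 9.13, both overlapping control. The DNA between their start sites is shown because the block's members differ in function and this pair shares a promoter region: in the RefSeq annotation of GRCm38.p6 the stretch chr3:154597049-154597246, plus strand, has the 98 bases between the annotated starts in capitals.

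Tyw3 and Cryz: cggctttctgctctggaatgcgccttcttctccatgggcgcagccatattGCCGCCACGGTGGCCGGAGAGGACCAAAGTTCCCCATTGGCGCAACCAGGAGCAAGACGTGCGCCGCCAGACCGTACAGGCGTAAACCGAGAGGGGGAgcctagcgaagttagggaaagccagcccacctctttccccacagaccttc

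The promoter window of Bank1, chr3:136326017-136326316 on the minus strand of the same build, covers 250 bases before and 50 after its annotated start. It is printed for contrast, since it has 3 CpG dinucleotides in 300 bases and the Tyw3 and Cryz stretch has 14 in 198. Capitals mark overlapping matches to TATAAA and its reverse complement, far upstream of the start.

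Bank1: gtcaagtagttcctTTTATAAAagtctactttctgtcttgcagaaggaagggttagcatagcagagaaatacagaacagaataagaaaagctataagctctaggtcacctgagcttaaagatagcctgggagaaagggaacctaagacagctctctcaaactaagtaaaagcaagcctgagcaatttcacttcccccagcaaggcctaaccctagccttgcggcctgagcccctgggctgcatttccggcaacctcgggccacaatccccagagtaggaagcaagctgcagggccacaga

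Next in size were enzymes of fatty acid and sphingolipid metabolism. Acadm, the medium-chain acyl-CoA dehydrogenase of fatty acid oxidation, had 9.04, 7.03, 8.16 and 8.64 in control cells, 10.24, 9.83, 10.72 and 10.86 in shSep15 cells, 7.51, 9.68, 8.66 and 9.83 in the arrays labelled shTR1, and 8.69, 8.35, 8.69 and 8.86 in shTR1/shSep15 cells. Sgms2, the plasma membrane sphingomyelin synthase, had 8.99, 9.86, 8.62 and 8.29 in control, 11.22, 10.86, 11.1 and 11.22 in shSep15, 9, 9.85, 9.76 and 10.99 in the arrays labelled shTR1, and 8.2, 7.4, 8.35 and 8.27 in shTR1/shSep15 cells. For Acadm and Sgms2 the shSep15 arrays did not overlap the control arrays, and Sgms2 was the member with the lowest difference of shTR1/shSep15 from control, -0.88. Hadh, which catalyses the next but one step of the same oxidation, read 10.94, 9.04, 10.66 and 10.81 in control, 11.47, 11.67, 11.8 and 11.69 in shSep15, 10.7, 10.53, 10.76 and 11.21 in the arrays labelled shTR1, and 10.56, 10.57, 10.53 and 10.72 in shTR1/shSep15 cells. Control replicate 2, far under the other control arrays, enters the difference of 1.3 for Hadh. All 11 members of the metabolic group were higher in this line, with a median of 1.47, among them also the fatty acid elongase Elovl6, the sulfate donor synthase Papss1 and the lipoprotein assembly factor Mttp.

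Of the 10 members of the secretory pathway and membrane traffic, 8 were higher, with a median of 1.27. Rabggtb, the beta subunit of the enzyme that attaches geranylgeranyl groups to Rab proteins, had the narrowest shSep15 values of any member described here, 12.07, 12.12, 12.14 and 12.1, against 10.13, 10.46, 9.63 and 9.84 in control cells. The arrays labelled shTR1 gave 9.4, 11.2, 9.91 and 11.18 for Rabggtb, with replicates 2 and 4 above the control arrays, and shTR1/shSep15 cells gave 10.03, 9.55, 9.97 and 9.69. The COPII coat subunits Sec24d and Sec24b were higher in shSep15 cells by 1.99 and 1.24, and the GPI transamidase subunit Pigk by 1.61. Lamtor3, a scaffold of the lysosomal Ragulator complex, had one of the smaller differences, 0.37, with 10.01, 11.17, 10.77 and 9.72 in control and 10.69, 10.75, 10.93 and 10.79 in shSep15 cells, which lay inside the control range. Lamtor3 was 10.27, 10.41, 9.94 and 11.4 in the arrays labelled shTR1 and 9.68, 9.35, 9.67 and 9.82 in shTR1/shSep15 cells. The lysosomal enzyme Manba and the Wnt carrier Wls were the lower members of this group.

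Among the 7 factors of RNA processing and translation all had higher means in shSep15 than in control cells, and the median difference was 1.4. Eif4e, the cap-binding translation factor, differed by only 0.45, with 11.05, 11.18, 10.73 and 11.13 in control, 11.76, 11.58, 11.13 and 11.44 in shSep15, 10.29, 11.3, 11.28 and 11.61 in the arrays labelled shTR1, and 11.23, 10.96, 11.24 and 11.14 in shTR1/shSep15 cells. Metap1, which removes the first methionine of new proteins, had 10.27, 9.82, 9.72 and 9.88 in control, 11.15, 10.6, 10.86 and 10.75 in shSep15, 9.98, 10.5, 10.62 and 10.74 in the arrays labelled shTR1, and 10.24, 9.8, 10.37 and 10.13 in shTR1/shSep15 cells. The shSep15 arrays overlapped control for Eif4e and not for Metap1. Dnttip2, Mettl14 of the RNA m6A methyltransferase and Larp7 of the 7SK particle were higher by 1.64, 1.47 and 1.4.

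The 5 measured members of transcription and NF-κB signalling had a median of 1.05, all higher. Lmo4, a LIM-domain adaptor of transcription factors, had 9.12, 8.64, 9.67 and 8.98 in control, 9.95, 10.08, 10.35 and 10.22 in shSep15, 9.04, 9.24, 8.07 and 9.91 in the arrays labelled shTR1, and 8.87, 8.98, 8.87 and 9.55 in shTR1/shSep15 cells. Fubp1, which binds single-stranded DNA upstream of Myc, had 10.07, 9.01, 9.17 and 9.78 in control and 10.27, 8.81, 9.42 and 9.61 in shSep15 cells, and 8.78, 9.46, 9.68 and 8.94 and 9.68, 9.2, 9.71 and 9.52 in the arrays labelled shTR1 and shTR1/shSep15. Lmo4 separated the shSep15 arrays from control, whereas the means of Fubp1 on its brightest probe set differed by 0.02 with overlapping arrays. Its 4 probe sets were all higher in shSep15 cells, by 0.02 to 1.79. Bcl10, an adaptor of NF-κB activation, was higher by 0.87 with overlapping arrays.

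Cytoskeletal and junction genes had a median of 0.99 over 10 members, 9 of them higher. Cnn3, an actin-binding calponin and the first member in chromosome order, had 11.68, 10.96, 10.83 and 11.13 in control, 12.08, 11.88, 12.21 and 12.37 in shSep15, 11.27, 11.76, 11.5 and 12.07 in the arrays labelled shTR1, and 11.4, 11.03, 11.47 and 11.42 in shTR1/shSep15 cells. Pdlim5, a PDZ and LIM protein of the actin cytoskeleton, had 8.38, 8.5, 8.76 and 8.28 in control, 10.01, 9.7, 9.99 and 9.98 in shSep15, 8.5, 9.18, 8.62 and 10.33 in the arrays labelled shTR1, and 8.35, 8.27, 8.42 and 8.5 in shTR1/shSep15 cells. Both separated shSep15 from control. For Pdlim5 replicate 4 labelled shTR1 was above even the shSep15 arrays, and the shTR1/shSep15 arrays overlapped control.

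The 7 kinases, phosphatases and receptors had the smallest median of the groups, 0.63, and 5 were higher. Ppp3ca, the catalytic subunit of calcineurin, had 9.26, 9.53, 10.55 and 9.34 in control, 10.34, 10.15, 10.44 and 10.26 in shSep15, 10.3, 9.15, 9.01 and 11.03 in the arrays labelled shTR1, and 9.4, 9.12, 9.39 and 10.01 in shTR1/shSep15 cells. Each of these lines overlapped control, whereas the shSep15 arrays all lay above the shTR1/shSep15 arrays. Rap1gds1, an exchange factor and chaperone of small GTPases, had 8.48, 5.76, 8.44 and 8.42 in control, 8.89, 8.62, 9.28 and 9.18 in shSep15, 8.52, 8.38, 8.29 and 9.45 in the arrays labelled shTR1, and 8.27, 8.09, 8.21 and 8.31 in shTR1/shSep15 cells. Every shSep15 array was above every control array, and control replicate 2, far under the others, enters the mean difference of 1.22. Prkacb, a catalytic subunit of protein kinase A, was higher by 1.9, and F3, the initiator of blood coagulation, by 0.38 with a control value of 10.9 in replicate 2 against 5.18 to 6.49 in the others.

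In the ubiquitin and cell division group 3 of 4 members were higher. The deubiquitinase Usp33 had 7.78, 7.52, 6.29 and 6.53 in control, 9.02, 8.42, 8.91 and 9.13 in shSep15, 5.64, 8, 7.97 and 7.99 in the arrays labelled shTR1, and 7.36, 6.18, 7.52 and 7.23 in shTR1/shSep15 cells. Ube2d3, a ubiquitin-conjugating enzyme and one of the brightest members, had 12.28, 12.04, 11.95 and 12.09 in control, 12.8, 12.74, 12.43 and 12.69 in shSep15, 11.24, 12.09, 12.24 and 12.32 in the arrays labelled shTR1, and 12.2, 11.99, 12.3 and 12.2 in shTR1/shSep15 cells. The shSep15 arrays were above control for both, by 1.84 and 0.58, and replicate 1 labelled shTR1 was the lowest of the 16 arrays for both.

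The members that were lower in shSep15 cells were few and mostly weak in signal. Manba, lysosomal beta-mannosidase, had 5.57, 6.98, 4.74 and 4.44 in control and 4.32, 3.92, 4.94 and 5.4 in shSep15 cells, with 5.21, 5.4, 5.22 and 4.54 in the arrays labelled shTR1 and 5.57, 4.99, 5.37 and 5.31 in shTR1/shSep15 cells. Depdc1a, which is expressed in dividing cells, had 7.19, 4.76, 4 and 5.41 in control, 5.01, 4.22, 5.12 and 5.7 in shSep15, 3.75, 6.85, 7.14 and 5.15 in the arrays labelled shTR1, and 6.49, 5.22, 6.69 and 6.47 in shTR1/shSep15 cells. Bmpr1b, a receptor of bone morphogenetic proteins, had 3.14, 3.59, 3.9 and 4.09 in control, 3.87, 3.78, 3.29 and 3.08 in shSep15, 3.65, 3.2, 3.41 and 3.6 in the arrays labelled shTR1, and 3.29, 4.19, 3.37 and 3.31 in shTR1/shSep15 cells. All these overlap between lines. Wls, which carries Wnt proteins to the cell surface and is the last measured gene of the chromosome, was the one lower member of clear signal, with 8.2, 7.53, 7.87 and 7.78 in control, 7.49, 7.08, 7.42 and 7.73 in shSep15, 6.62, 8.05, 8.38 and 8.82 in the arrays labelled shTR1, and 8.16, 7.69, 8.48 and 8.49 in shTR1/shSep15 cells. The netrin receptor Unc5c and the neuronal adhesion protein Negr1, at mean differences of -0.04 and -0.06, complete the 6.

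**Figure D2:**
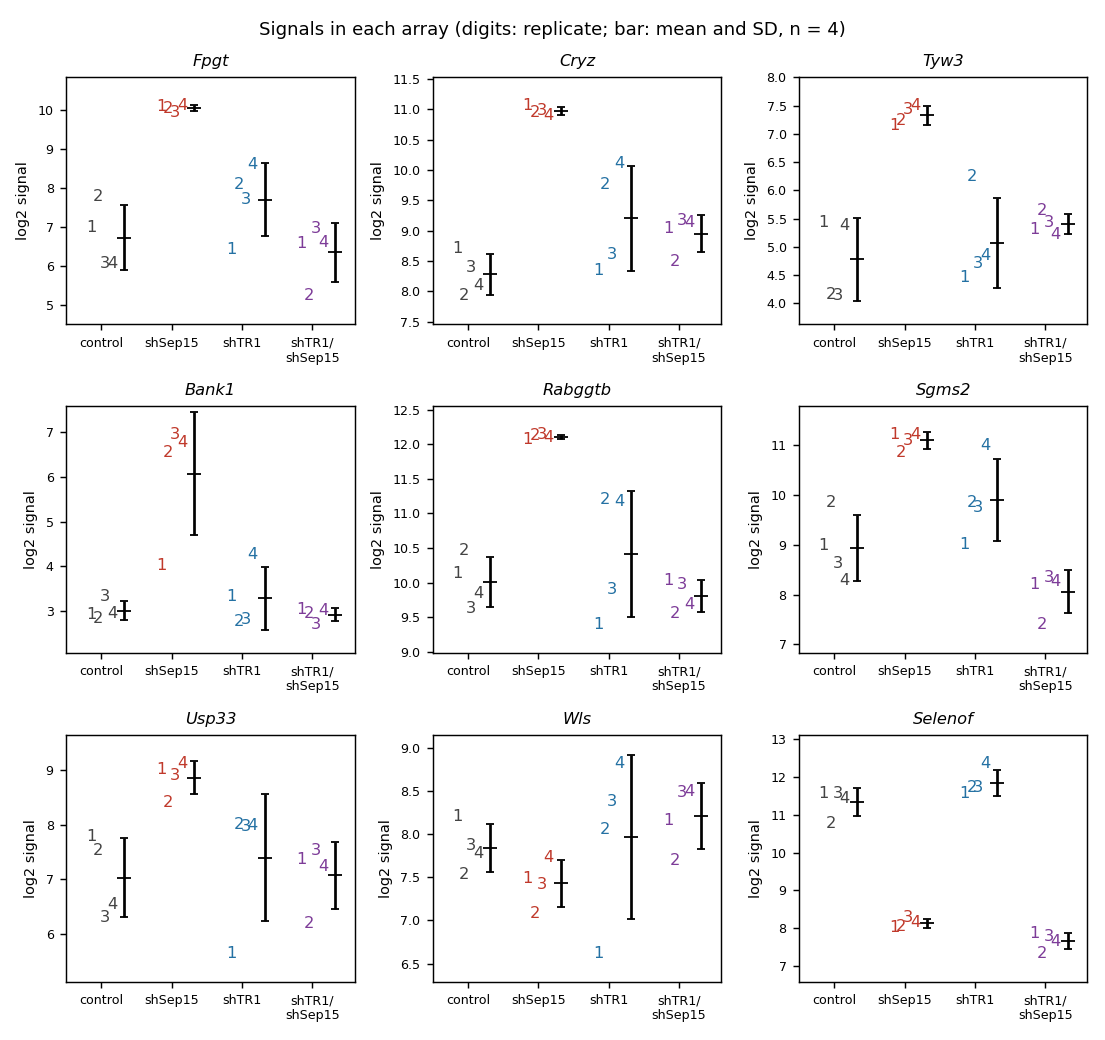
Log2 signals (vertical axes, a separate range for each gene) of 8 members and of Selenof in each line (horizontal axes), with each array drawn as its replicate number and the mean and SD of 4 arrays as a bar. The shSep15 arrays of Fpgt, Cryz, Tyw3 and Rabggtb lie close together above every control array, those of Wls overlap control, and those of Selenof lie below it.

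Members of stronger signal were more often higher. Of the 43 members with a mean log2 signal of at least 6 over the 16 arrays, 42 were higher in shSep15 cells and the median difference was 1.31. Of the 11 weaker members 6 were higher and the median was 0.13, although Bank1 and Tyw3 belong to these. The mean over the 16 arrays includes the shSep15 arrays, so a higher signal in them helps a gene to reach 6. The link of signal and direction is partly set by this cut-off, here and in the sets and bins of like signal below. Probe sets not used to represent their genes give a second reading from the same arrays and RNA. There were 78 of them for the members, of which 65 were higher in shSep15 cells, and their median difference was 0.66, and among the 36 of these with a mean signal of at least 6, 33 were higher with a median of 0.89. Of the 35 members with more than 1 probe set, 26 had all of them higher, 3 all of them lower, and 6 disagreed: Ank2, Bcar3, Camk2d, Eif4e, Rap1gds1 and Ssx2ip.

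The members are not the only genes of their region, and the rest of it was described with the same limit, since it was looked at with the choosing contrast in view. Between Cnn3 and Wls there are 135 other measured genes, with a median difference of 0.04 in shSep15 cells. Most of them are weak, and for the 41 with a mean signal of at least 6 the median was 1.21 with 37 higher, close to the 1.31 of members of like signal. On the part of the chromosome before the block, 333 genes of like signal had a median of 0.51 and 271 were higher, and on all other chromosomes 7637 such genes had a median of 0.09. Chromosome medians ran from -0.28 to 0.34 there, and chromosomes 4 and 17, both at 0.34, had 80.4% and 82.3% of their bright genes higher, beside 83.9% and a median of 0.61 on chromosome 3. With the bright genes of chromosome 3 cut into 12 successive bins of 34 or 35, the medians were 0.12 and 0.03 in the first bins, 0.89 in the bin from Nhlrc3 to Ift80, between 0.36 and 1.04 in the next 7 bins, and 1.27 and 1.29 in the last bins, Gar1 to Gbp2b and Gbp2 to Wls. On the other chromosomes 216 bins of about the same size had medians from -0.77 to 0.62. The higher signals thus covered most of the chromosome rather than the block alone, and the block lay at the upper end of them.

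The edges of the pattern were read gene by gene, after the values were seen. Before the block, Rwdd3 went from 4.07 ± 0.19 in control to 5.87 ± 0.33 in shSep15 cells (SD, n = 4) and Alg14, which acts in N-glycan synthesis, from 8.69 ± 0.73 to 9.87 ± 0.26, while the weak Tlcd4 had 3.17 and 3.16. No measured gene lies after Wls. At the far end, Fpgt with the largest difference of the members was followed by genes with small or negative differences: of the bright genes after it, Zranb2 differed by 0.10, Ankrd13c by -0.76, Srsf11 by -0.57, Lrrc40 by -0.29 and Wls by -0.42.

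Selenof itself breaks the run. It differed by -3.20 ± 0.19 (SE) in shSep15 cells, whereas its measured neighbours Hs2st1 on one side and Sh3glb1 on the other differed by 1.59 ± 0.24 and 1.13 ± 0.24 (SE), and Clca3a1, the next gene, by 1.66 ± 0.33. In shTR1/shSep15 cells Selenof differed by -3.68 from control (limma adjusted p = 4.86e-07), and the same neighbours differed by 0.15, 0.20 and 0.36 (limma adjusted p = 0.93, 0.895 and 0.844). In the arrays labelled shTR1 these neighbours differed by 0.73, 0.54 and 0.02 (limma adjusted p = 0.249, 0.408 and 0.985). Without replicates 2 and 4 they differed by 0.32, 0.29 and -0.28. The low Selenof signal was therefore present in both lines with the Sep15 hairpin, and the higher signals around it in only 1 of them.

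**Figure D3:**
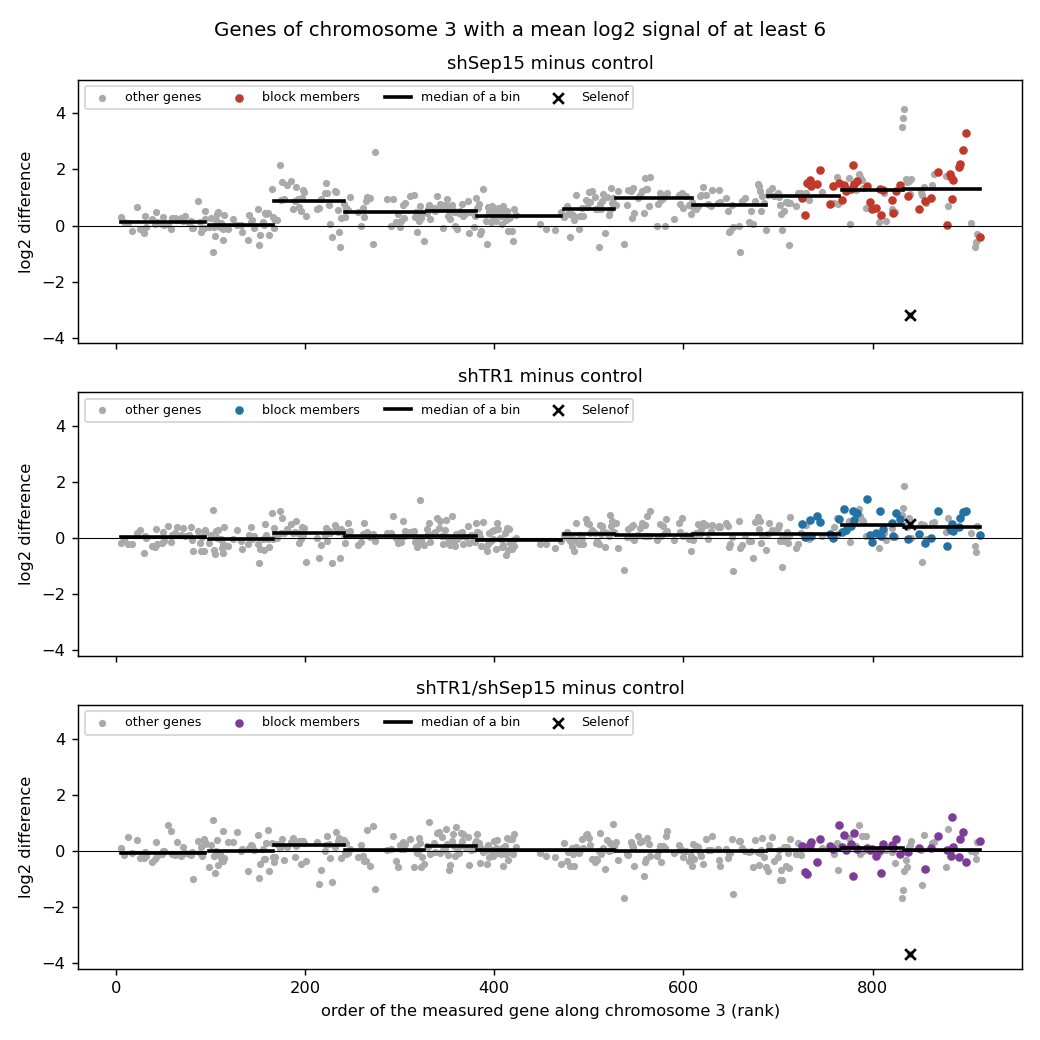
Log2 difference from control (vertical axes) of chromosome 3 genes with a mean log2 signal of at least 6, against their rank in chromosome order among 913 measured genes (horizontal axis), for 3 lines. Coloured points are members, grey points other genes, black lines the medians of 12 bins, and the cross Selenof; in shSep15 the last bins reach 1.27 and 1.29, in shTR1 0.49 and 0.41 (0.1 and -0.14 without replicates 2 and 4, and up to 0.6 on other chromosomes with all arrays), and in shTR1/shSep15 0.1 and 0.04.

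The comparisons that the choice of members did not use are those of the other lines, with the reservation that shTR1 minus control and shTR1/shSep15 minus control share the control arrays with the choosing contrast. In shTR1/shSep15 cells, which carry the Sep15 hairpin as well, the members had a median difference of 0.09 from control, with quartiles of -0.11 and 0.27, 36 higher and 18 lower, beside a median of 0.01 for all genes. Among genes with a mean signal of at least 6 the median was 0.1 for members and 0.12 for genes of other chromosomes. The limma test called 0 members, beside 0.011% of all genes called higher and 0.0275% lower. With unadjusted p-values under 0.05, 2 members were higher, Ak5 and Papss1, beside 6.2% of all genes, and 3 lower, Arhgap29, Sgms2 and Lamtor3, beside 2.59%. Ak5, an adenylate kinase, had the largest difference, 1.20 ± 0.34 (SE), with 5.94, 5.25, 6.69 and 5.18 in control and 6.4, 7.43, 6.56 and 7.49 in shTR1/shSep15 cells, and did not pass the limma test (adjusted p = 0.345). For no member did the 4 arrays of this line lie wholly above the control arrays, beside 4.31% of all genes, or wholly below them, beside 1.35%. Relative to the control means, the median of the members was 0.15, -0.12, 0.21 and 0.19 in the shTR1/shSep15 arrays and 0.25, -0.11, -0.07 and -0.07 in the control arrays themselves.

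In shTR1 cells the members had a median difference of 0.3 from control, with quartiles of 0.09 and 0.67 and a range from -0.34 to 1.39, and 45 were higher, beside a median of -0.03 for all genes. Among genes with a mean signal of at least 6 the median was 0.38 for members, 39 of 43 being higher, and 0.16 for genes of other chromosomes, 68.3% of them being higher. The last bins of chromosome 3 had medians of 0.49 and 0.41, and 8 and 11 of the 216 bins on other chromosomes reached these values, up to 0.6. The limma test called 0 members, beside 0.214% of all genes called higher and 0.0605% lower. Unadjusted p-values under 0.05 were reached by 14 higher members, beside 9.08% of all genes, and by 0 lower ones, beside 4.88%. Among genes with a mean signal of at least 6, 13 of 43 members were higher at this cut-off, beside 1246 of 7637 genes of other chromosomes. Lower ones were 0 and 230 in the same sets. The 4 arrays lay above all control arrays for Tbck and Ank2, beside 3.28% of all genes, and below them for 0 members, beside 1.43%. Ank2 is weak, and its difference was only 0.11, with 4.12 to 4.15 in these arrays and at most 4.11 in control. The lowest p was that of Tbck, a regulator of mTOR signalling and vesicle traffic, with 7.03, 5.7, 6.83 and 6.26 in control and 7.08, 7.32, 7.04 and 8.01 in the arrays labelled shTR1, a difference of 0.91 ± 0.29 (SE; limma adjusted p = 0.23). Metap1, Mettl14 and Cryz followed, with 0.54, 0.64 and 0.92 (limma adjusted p = 0.261, 0.273 and 0.277). By group, the medians ran from -0.04 for the NF-κB and transcription members to 0.71 for the metabolic members, and without replicates 2 and 4 from -0.28 to 0.37 for the same groups. Of the 11 metabolic members 11 were higher with all arrays and 10 without those replicates, where Acadm differed by -0.13.

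This median rests on the arrays that go against their label. Relative to the control means the members' median was -0.05, 0.47, 0.3 and 0.8 in replicates 1 to 4, and 5, 25, 12 and 34 members lay above the highest control array. Replicate 4 was the highest array of the line for 28 members and replicate 2 for 16, whereas replicate 1 was the lowest for 34. Without replicates 2 and 4 the median difference was 0.02, with 27 members higher and 27 lower, beside -0.01 for all genes. Again 0 members were called by limma, and unadjusted p-values under 0.05 were reached by 0 members in either direction, beside 6.32% of all genes higher and 2.13% lower. The difference was then 0.60 for Tbck, 0.38 for Metap1, 0.33 for Mettl14 and 0.19 for Cryz (limma adjusted p = 0.781, 0.803, 0.825 and 0.879). For bright genes the members' median was then 0.08 and that of other chromosomes 0.14, and the last bins of chromosome 3 had 0.1 and -0.14. The interferon-induced genes were also highest in replicates 4 and 2 of this line, at 10.3 and 7.98, and in control replicate 2 at 7.53. In that control array the members' median was -0.11, and in shSep15 replicate 1, with an interferon mean of 6.13, it was 1.13. The part of the interferon-induced genes in these differences was not tested.

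**Figure D4:**
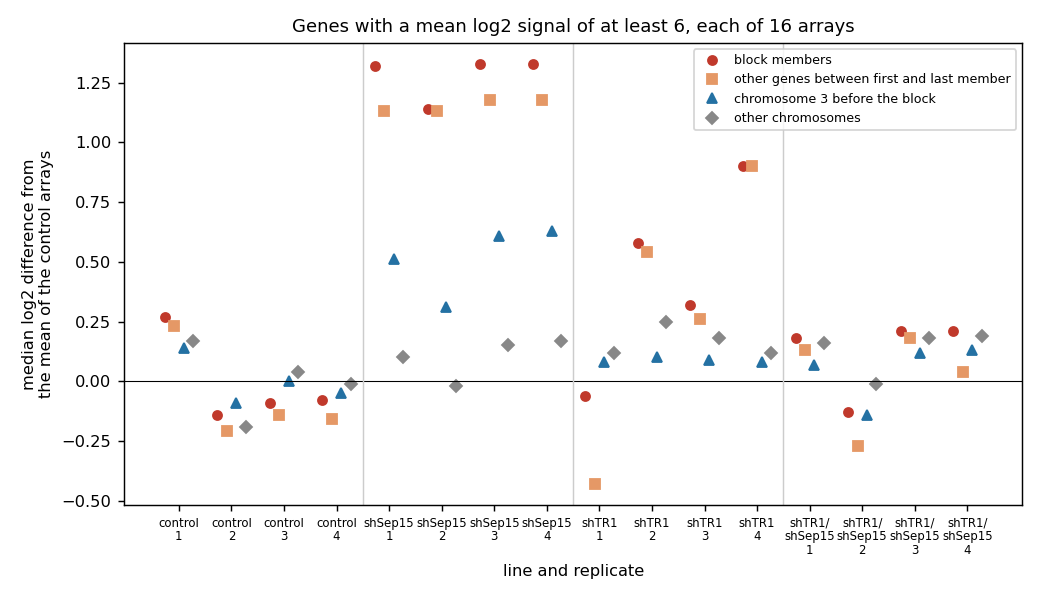
Median log2 difference from the mean of the control arrays (vertical axis) in each of the 16 arrays (horizontal axis), over genes with a mean log2 signal of at least 6: members (circles), other genes between Cnn3 and Wls (squares), chromosome 3 genes before the block (triangles) and genes of other chromosomes (diamonds). In the shSep15 arrays the circles lie between 1.14 and 1.33 and the triangles between 0.31 and 0.63; in the arrays labelled shTR1 the circles spread from -0.06 to 0.9 while the triangles stay between 0.08 and 0.1.

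The arrays labelled shTR1 differed from shSep15 arrays in where on the chromosome the signals were high. In replicate 4 the bright members had a median of 0.9 and the other bright genes of the interval also 0.9, but the bright genes of chromosome 3 before the block had 0.08, where the 4 shSep15 arrays had 0.51, 0.31, 0.61 and 0.63. In replicate 2 the corresponding values were 0.58, 0.54 and 0.1. The difference in extent between these arrays was not tested, because the arrays that show it were noticed from their values.

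Between shTR1/shSep15 and shTR1 cells, which share the TR1 hairpin and include no array of the choosing contrast, the members' median difference was -0.23, with 17 higher and 37 lower, beside 0.05 for all genes. Among genes with a mean signal of at least 6 it was -0.28 for members and -0.05 for genes of other chromosomes. The limma test called 0 members, beside 0.077% of all genes called lower and 0.033% higher. Unadjusted p-values under 0.05 were reached by 9 lower members, beside 6.61% of all genes, and by 0 higher ones, beside 4.73%. Among genes with a mean signal of at least 6, 9 of 43 members were lower at this cut-off, beside 846 of 7637 genes of other chromosomes. Higher ones were 0 and 447 in the same sets. The 4 shTR1/shSep15 arrays lay below all shTR1 arrays for Sgms2, Tbck and Lamtor3, beside 5.32% of all genes, and above them for 0 members, beside 4.09%. Sgms2 had the largest difference, -1.84 ± 0.38 (SE; limma adjusted p = 0.0895), followed in p by Tbck with -0.83 (limma adjusted p = 0.308), Fpgt with -1.35 (limma adjusted p = 0.314) and Lamtor3 with -0.87 (limma adjusted p = 0.323). Sgms2 passed the limma test when control replicate 2 was left out (adjusted p = 0.0362) or when replicate 1 labelled shTR1 was (adjusted p = 0.0231). Without replicates 2 and 4 labelled shTR1, the members' median was -0.004, with 27 higher and 27 lower and 0 called. Unadjusted p-values under 0.05 were then reached by 1 lower member, beside 4.1% of all genes, and by 3 higher ones, beside 3.02%. Sgms2, Tbck, Fpgt and Lamtor3 differed by -1.32, -0.53, -0.71 and -0.47 (limma adjusted p = 0.481, 0.899, 0.939 and 0.918).

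For completeness, shSep15 cells were set against the other knockdown lines, as a description, because the shSep15 arrays chose the members. The median difference from shTR1 cells was 0.74 with 51 members higher, or 1.01 without replicates 2 and 4 labelled shTR1, and from shTR1/shSep15 cells it was 1.07 with 48 higher. The largest differences from shTR1/shSep15 cells were 3.69, that of Fpgt, and 3.15, that of Bank1.

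The members also varied unequally within the lines. The median over members of the SD between the 4 arrays was 0.47 in control, 0.24 in shSep15, 0.55 in shTR1 and 0.23 in shTR1/shSep15 cells, where that of all genes was 0.29, 0.19, 0.22 and 0.17. The members' SD thus exceeded that of all genes in each line, and by most in the arrays labelled shTR1. Members and all genes were not matched for signal here, and the part of signal in this difference was not tested. The epithelial marker mean was 4.13 to 4.35 in shSep15 arrays and 4.82 to 5.47 in control arrays. It was 4.67 to 5.54 in the arrays labelled shTR1 and 5.04 to 5.29 in shTR1/shSep15 arrays, both overlapping control. The part of this marker difference in the result was not tested.

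Promoter sequence was examined for features the choice did not use. RefSeq windows of 250 bases before to 50 after the annotated start matched 45 of the 54 measured members and 14452 measured genes in all. For each gene the highest value over its windows was taken. The medians over members were 65% GC and 26 CpG dinucleotides, and those over all measured genes 59.7% and 18. The sets were not matched for signal: 43 of 54 members had a mean signal of at least 6, beside 7637 of 17280 genes of other chromosomes. The part of signal in this difference was not tested. Searched on both strands, the interferon-stimulated response element (TTTC, any 2 bases, TTTC) was found in the windows of 2 members, Pdlim5 and Wls, which is 4.44% beside 3.63% of all genes. The gamma-activated sequence TTCNNNGAA was found in 3 members, Eif4e, Sgms2 and Ube2d3 (6.67% beside 8.57%), and the κB motif (GGG, any 2 bases, TTTCC) in 1, Bmpr1b (2.22% beside 1.89%). The antioxidant response element TGACNNNGC was found in 6 (13.3% beside 16.2%), the E-box CACGTG in 4 (8.89% beside 10.2%) and TATAAA in 7 (15.6% beside 11.5%). A gene counted here if any of its windows matched. Counted by window, with 72 windows of members and 32851 in all, each motif had a lower share in members. The first 3 motifs had 2.78% beside 3.44%, 4.17% beside 8.3% and 1.39% beside 1.63%. The last 3 had 8.33% beside 12.4%, 5.56% beside 7.15% and 9.72% beside 13.6%. Each motif was searched on its own, and overlaps between motifs were not removed. These are matches of letters in short windows, and a window without a match says only that these letters are not in it.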

How the data were processed

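Total RNA of 16 CT26 samples was hybridized to Affymetrix Mouse 430 2.0 arrays. The authors deposited normalized log2 signals, made by Robust Multi-Array Analysis (version not given in the sources used here), for 45101 probe sets, which were used unchanged. The 64 manufacturer's controls were left out. A gene was represented by the single-symbol probe set of highest mean over the 16 arrays, with symbols updated through RefSeq (GRCm38.p6), which also gave the order along the chromosome and the promoter sequences; the build of the probe annotation is not named, so only order was used. Arrays were grouped by their labels. Each of 45037 probe sets was fitted with limma 3.58.1 (R 4.3.3), 1 mean per line, and p-values were adjusted by the Benjamini-Hochberg method over all probe sets (threshold 0.05). The procedure was tested on simulated data. Deviations of same-numbered arrays from their line means correlated at 0.105 to 0.466 between shSep15 and shTR1/shSep15 cells, and at -0.528 to 0.399 between other lines; the labels give no pairing. Precision is limited by 4 arrays per line. The members, gene groups and tests were chosen with earlier results of these data known. Per-array values are given for the 6 largest and 4 smallest differences in shSep15 cells, the end members, and the 2 brightest members of each group.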

Additional observations from a re-analysis of the deposited data

Results flagged for a closer look

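Within each line, the highest or lowest of the 4 arrays was compared with the rest by Dixon's rule. In 12 of 104 sets of values an array stood apart. Chance gives about 1 in 20 for independent sets, but these sets share their arrays, so no excess over chance is read from the count. The median of the members relative to the control means was apart at 0.25 in control replicate 1 and at -0.12 in shTR1/shSep15 replicate 2. In the latter array Sgms2 (7.4), Depdc1a (5.22) and Cnn3 (11.03) were lower and Bmpr1b (4.19) higher than in the other arrays of the line. In control replicate 2, Hadh (9.04) and Rap1gds1 (5.76) were lower than in the other control arrays. Bank1 was lower in shSep15 replicate 1 (4.02), Pdlim5 in shSep15 replicate 2 (9.7) and Usp33 in shTR1 replicate 1 (5.64), and Lmo4 was higher in shTR1/shSep15 replicate 4 (9.55).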

How the results depend on the processing

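The median difference of the members in shSep15 cells was 1.02 with the mean of all probe sets of a gene, against 1.28. Leaving out 1 array at a time, it ran from 1.176 to 1.335. Over the same omissions the median ran from 0.186 to 0.545 for shTR1 minus control, where shTR1 replicate 4 gives the lowest value and replicate 1 the highest, from 0.065 to 0.199 for shTR1/shSep15 minus control, from -0.354 to -0.045 for shTR1/shSep15 minus shTR1, from 0.555 to 0.866 for shSep15 minus shTR1, and from 1.044 to 1.163 for shSep15 minus shTR1/shSep15. Calls stayed at 0 for shTR1 and shTR1/shSep15 against control and ran from 0 to 1 between shTR1/shSep15 and shTR1. Without shTR1 replicates 2 and 4 together, an alternative chosen after seeing the data, the median was 0.023 for shTR1 minus control and 1.015 for shSep15 minus shTR1. Txnrd1 with all arrays differed from control by -0.96 in shTR1 cells (limma adjusted p = 0.455) and by -2.36 in shTR1/shSep15 cells (limma adjusted p = 0.19). In shTR1 cells it ran from -1.482 to -0.572 with 1 array left out. Without replicates 2 and 4 it was -2.096, but those arrays were singled out by their Txnrd1 signals, so no test is read from this value. Selenof ran from -3.386 to -3.122 in shSep15 cells and from -3.859 to -3.571 in shTR1/shSep15 cells. Same-numbered arrays deviated together (every correlation over 0.1) only between shSep15 and shTR1/shSep15 cells, where the median was 1.075. Each line has 1 array of each number, so the replicate number as a block cannot change a difference of line means. For the other pairs of lines the shared numbers were not taken as pairs. With the replicate number as a block, 0 members were called in the 3 comparisons that do not compare the mean of shSep15 cells. The methods' unmoderated contrast, adjusted the same way, called 0 members in the same 3 comparisons. Median centring, a further quantile normalization and another choice of probe set kept each median's direction. An intensity trend and a fit of only the compared lines leave the differences unchanged by construction. None of these settings moved a count of calls by over 1.5 times. The causes were not tested.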

Other observations

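Between the members Pdlim5 and Lmo4 lie genes of guanylate-binding proteins, GTPases that interferon induces, which are no members of the block and were looked at after their values were seen. From control, Gbp7, Gbp3, Gbp2b and Gbp2 differed by 4.91, 3.52, 3.84 and 4.16 in shSep15 cells, by 2.14, 0.82, 1.09 and 1.85 in the arrays labelled shTR1 (0.09, -1.18, -0.64 and 0.24 without replicates 2 and 4, whose Txnrd1 signals go against the label), and by -0.28, -1.69, -1.39 and -0.71 in shTR1/shSep15 cells. The members on either side, Pdlim5 and Lmo4, differed by 1.44 and 1.05, by 0.68 and -0.04 (0.08 and -0.55 without those replicates), and by -0.09 and -0.03 in the same lines. Between these genes and Lmo4, Gtf2b, a general transcription factor, and Pkn2, a protein kinase, differed by 1.67 and 1.55 in shSep15 cells.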
